A study of Homo sapiens with 4 samples.

Results

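Genes of glucose uptake, glycolysis and the response to low oxygen were followed in a myeloid cell line and its AZA-resistant derivative, each with and without 5-azacytidine (AZA). The 10 genes were SLC2A1, SLC2A3, HK2, PFKFB3, PFKFB4, LDHA, PGK1, CA9, BNIP3 and ADM. They were found by their exact names in the annotation of a human Agilent expression array, which gave 14 of the 58185 gene probes analysed, or 10 of 43311 gene names. MDS-L is a myeloid line established from cells of myelodysplastic syndrome, and MDS-L/CDA was derived from it by transducing CDA, an enzyme that deaminates cytidine and its analogues. Cells of each line were exposed for 72 h either to the vehicle, 0.1% DMSO, or to 1 μM AZA, a nucleoside that is incorporated into RNA and DNA and inhibits DNA methyltransferases. All cultures were kept in serum with interleukin-3. Each of the 4 conditions gave 1 RNA sample on 1 array labelled with Cy3. A second culture of any condition was not analysed here, so no p-value is given and the error between cultures is unknown. On 2 arrays, MDS-L with AZA and MDS-L/CDA with vehicle, the treatment field of the sample labels contradicts 3 other fields, and the other fields, which fit the described design, were followed. One label field gives the dose as 1 mM, and the 1 μM of the other fields and of the methods was used.

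Cells take up glucose through facilitative transporters such as those encoded by SLC2A1 (GLUT1) and SLC2A3 (GLUT3), trap it as glucose 6-phosphate with hexokinases such as HK2, and commit it to glycolysis at phosphofructokinase, which the PFKFB enzymes tune through fructose 2,6-bisphosphate. PGK1 and LDHA act further down the pathway, where PGK1 forms ATP and LDHA converts pyruvate to lactate. The hypoxia-inducible factors (HIF), dimers of an oxygen-labile alpha subunit (HIF1A or EPAS1) with ARNT, bind a short core motif near many of these genes and raise their transcription when oxygen falls. CA9 (a surface carbonic anhydrase), BNIP3 (a mitochondrial protein of mitophagy and cell death) and ADM (the secreted peptide adrenomedullin) are classical HIF targets outside the glycolytic pathway.

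Signals are given below as multiples of the 75th percentile of all gene probes on the same array, called the scaled signal. That percentile was between 37.3 and 52.9 in scanner units, lower in both MDS-L/CDA arrays than in both MDS-L arrays, and between 32.6% and 36.5% of probes were well above background by the flag of the scanner software. The faintest signal carrying that flag was between 0.190 and 0.296 in scaled units. Of 298 probes printed 10 times, the 261 that were well above background on all 4 arrays served to measure technical error. Their spots had an SD of 0.18 to 0.29 on the log2 scale within an array. The error of dimmer probes is not covered by it. Of 9 myeloid progenitor markers 8 were well above background on all 4 arrays and MPO was on none. Of 9 markers of epithelial, lymphoid, fibroblast and endothelial cells 4 were well above background on all 4 arrays and 5 on none. With AZA in MDS-L cells the myeloid marker KIT was 47.3-fold higher and the endothelial marker PECAM1 was 2.22-fold higher. In MDS-L/CDA cells KIT was 3.58-fold higher with AZA and PECAM1 had a ratio of 1.02. The other measured myeloid markers went both ways in MDS-L cells, with AZA/vehicle ratios from 0.73 (CD34) to 1.30 (CD33). The part of these shifts in the values below was not tested, and in RNA from whole cultures fewer cells of a kind cannot be told apart from less RNA per cell. The probe of CDA did not carry the flag on any of the 4 arrays, so it does not check the labels of the lines.

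Of the 14 probes, 11 were well above background on all 4 arrays, and these covered 9 of the 10 genes. The CA9 probe and a second HK2 probe carried the flag on none of the 4. A second SLC2A3 probe was well above background on the 2 AZA arrays and not on the 2 vehicle arrays. SLC2A1, PFKFB4, PGK1, CA9, BNIP3 and ADM had 1 probe each, while SLC2A3, HK2, PFKFB3 and LDHA had 2. The probes are 60 bases long. Those shown here are the ones on which the identity of a signal turns, namely the LDHA pair, the dimmer SLC2A3 probe and the CA9 probe that gave no usable signal. They are printed in lower case as the array file gives them, with no part marked.
LDHA probe placed on chromosome 11 (hg19 chr11:18428789-18428848, plus strand): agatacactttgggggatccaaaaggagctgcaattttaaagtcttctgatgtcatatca
LDHA probe placed on chromosome 9 (hg19 chr9:14921817-14921876, minus strand): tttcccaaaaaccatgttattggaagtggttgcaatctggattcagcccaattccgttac
SLC2A3 dimmer probe (hg19 chr12:8075591-8077035, minus strand): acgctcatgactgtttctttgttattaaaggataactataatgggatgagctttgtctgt
CA9 probe (hg19 chr9:35677817-35679204, plus strand): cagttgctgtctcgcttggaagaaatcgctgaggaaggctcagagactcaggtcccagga
The array file names both of the first pair LDHA, with 4 RefSeq transcripts each, although it places them on different chromosomes. RefSeq lists LDHAP4 among the pseudogenes of chromosome 9, and how far that gene and LDHA share this probe's signal was not tested. The dimmer SLC2A3 probe lists transcripts of both SLC2A3 and its close paralogue SLC2A14, so its signal cannot be given to SLC2A3 alone. It and the CA9 probe span 1445 and 1388 bases of the genome, which means that each crosses at least 1 intron.

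**Figure D1:**
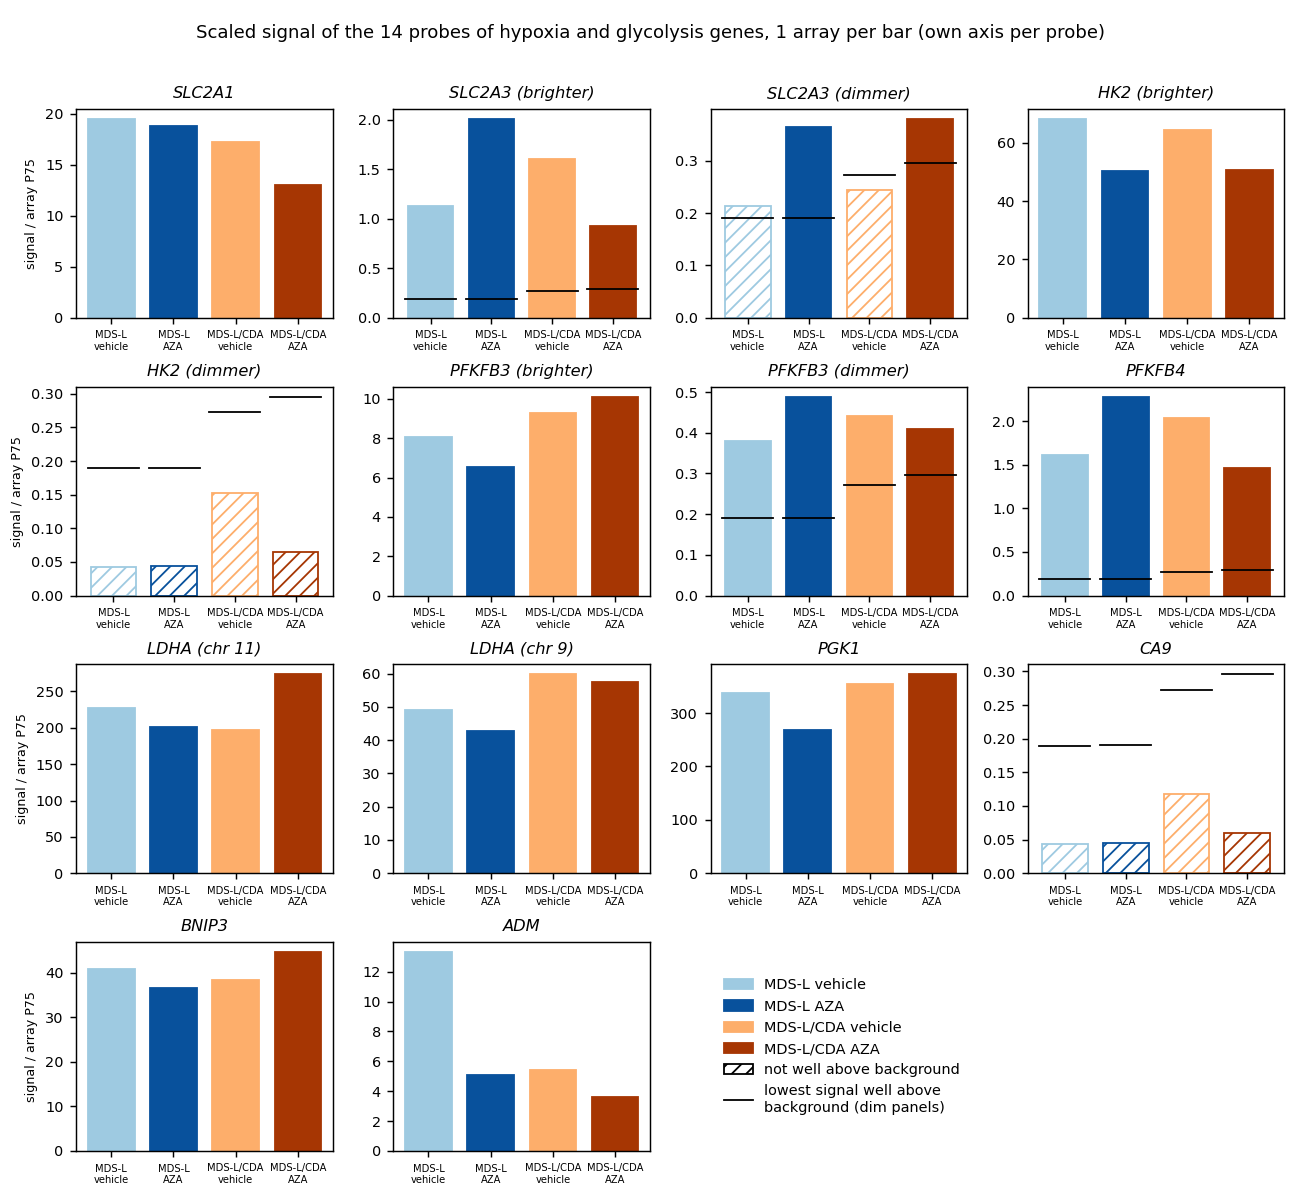
Scaled signal (vertical axis, multiples of the array's 75th percentile, own axis from 0 for each probe) of the 14 probes on the 4 arrays, 1 bar per array. Hatched bars were not well above background, and short black lines in the panels of dim probes mark the lowest signal that was. ADM stands at 13.3 on the MDS-L vehicle array and between 3.63 and 5.41 on the other 3 arrays, whereas PGK1 stays between 269 and 372.

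ADM was 2-fold or more lower with AZA in MDS-L cells. No other measured gene of the group was 2-fold or more apart between AZA and vehicle in either line. A gene was called when a probe differed 2-fold or more between the 2 arrays of a comparison. In MDS-L cells 0 of 9 measured genes were higher and 1 (ADM) was lower, against 7.7% and 7.51% of the 17202 genes measured on the array. The MDS-L/CDA pair had 0 of 9 higher and 0 lower, against 3.09% and 4.09% of 15410 genes. Between the lines, 1 gene (ADM) was lower in MDS-L/CDA than in MDS-L with vehicle, against 3.46% of 16034 genes, and 1 (SLC2A3) was lower with AZA, against 6.26% of 16768 genes. No member was higher in MDS-L/CDA cells, where 2.59% of genes were with vehicle and 6.74% with AZA. With 9 genes these counts lie within 1 gene of what the background shares give. Over the 9 genes the log2 AZA/vehicle ratio had a median of -0.17 in MDS-L, beside -0.16 over all genes, and of -0.35 in MDS-L/CDA, beside 0.01. In MDS-L 2 of the 9 ratios were above 0 and 7 below. In MDS-L/CDA 4 were above 0 and 5 below, from -0.79 to 0.48, so the group did not move as a whole. For MDS-L/CDA over MDS-L the medians were -0.08 beside 0.09 with vehicle and 0.01 beside 0.23 with AZA.

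**Figure D2:**
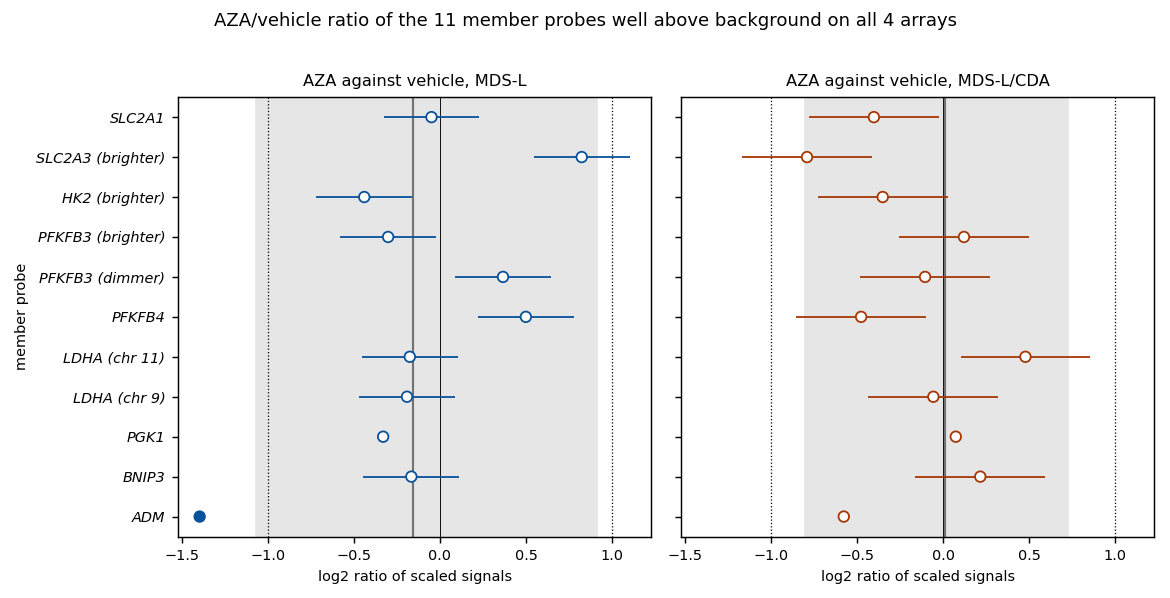
Log2 AZA/vehicle ratio (horizontal axis) of the 11 member probes that were well above background on all 4 arrays, for MDS-L (left) and MDS-L/CDA (right). Horizontal bars show 1 spread of a ratio of single spots (0.28 and 0.38 log2), drawn only for probes with 1 spot, the grey band spans the 5th to 95th percentile of all probes, the grey line is the median of all genes and dotted lines mark 2-fold. The filled point is ADM in MDS-L at -1.40, outside the band that starts at -1.06.

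ADM encodes the precursor of adrenomedullin, a vasodilator and growth-promoting peptide. Its probe lies at chr11:10328780-10328839 of hg19 and was printed 10 times on each array. The scaled signal was 13.3 with vehicle and 5.06 with AZA in MDS-L cells, and 5.41 with vehicle and 3.63 with AZA in MDS-L/CDA cells. The MDS-L vehicle array was thus the high one, and the other 3 lay closer to each other than to it. ADM was 2.63-fold lower with AZA than with vehicle in MDS-L cells (log2 ratio -1.40), and the log2 ratio in MDS-L/CDA cells was -0.58. With vehicle ADM was 2.46-fold lower in MDS-L/CDA than in MDS-L cells (log2 ratio -1.30), and with AZA the log2 ratio of the lines was -0.48. The 2 called values share the MDS-L vehicle array and are therefore not independent of each other. Single spots ranged from 11.3 to 17.7 with vehicle and from 3.93 to 6.84 with AZA in MDS-L cells, without overlap. On the MDS-L/CDA arrays 9 spots ranged from 4.35 to 6.27 with vehicle, after 1 spot with an outlier flag was left out, and 10 spots from 2.71 to 4.61 with AZA, so that the ranges overlapped. Spots of 1 array share its RNA and its labelling, and they bound the measurement error only. All 4 log2 ratios of ADM kept their sign under the 9 ways of processing that were run, the one used here and 8 others, between -1.94 and -1.20 for AZA in MDS-L cells and between -1.82 and -1.25 for the lines with vehicle. Relative to the median of all genes the AZA log2 ratio in MDS-L cells was between -1.24 and -1.11. Scalings that move all probes of an array alike cannot change that value.

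**Figure D3:**
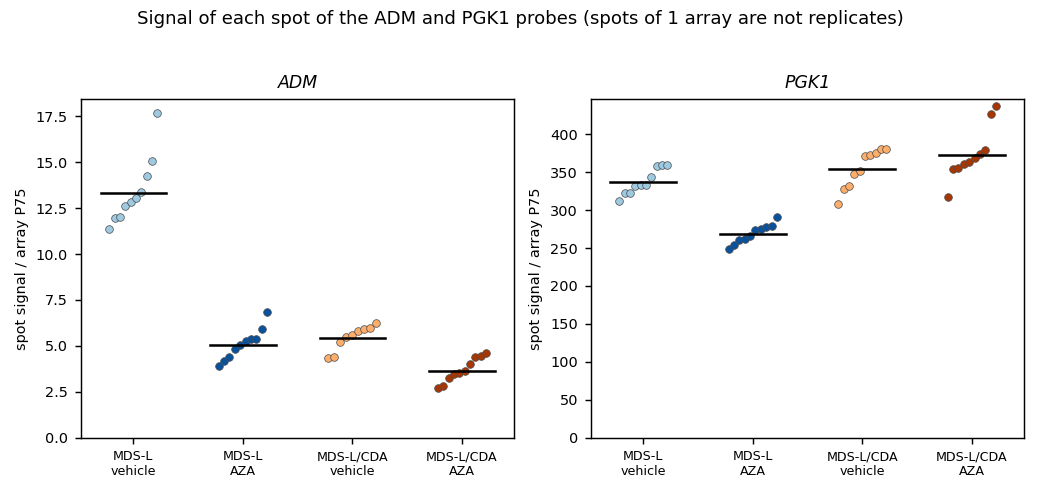
Scaled signal of every spot (vertical axis, from 0) of the ADM and PGK1 probes on the 4 arrays, with the geometric mean as a black line. Spots of ADM reach down to 11.3 on the MDS-L vehicle array and up to 6.84 on the MDS-L AZA array, and those of PGK1 fall between 249 and 437 over the 4 arrays.

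The 2 transporter genes had different profiles over the arrays. SLC2A1, the broadly expressed GLUT1 transporter (probe at chr1:43391874-43391933), gave scaled signals of 19.5, 18.8, 17.2 and 13.0 in MDS-L vehicle, MDS-L AZA, MDS-L/CDA vehicle and MDS-L/CDA AZA, the order kept for all genes below. The highest and the lowest array differed by 0.58 on the log2 scale and no comparison reached 2-fold. Its log2 AZA/vehicle ratio was -0.05 in MDS-L cells, positive under 4 of the other normalizations, and -0.40 in MDS-L/CDA cells.

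SLC2A3, the high-affinity GLUT3 transporter, was read by a brighter probe at chr12:8072924-8072983 with 1.13, 2.00, 1.60 and 0.928. The MDS-L AZA array was the highest and the MDS-L/CDA AZA array the lowest. The log2 AZA/vehicle ratio was 0.82 in MDS-L and -0.79 in MDS-L/CDA, each below 2-fold, and both signs held under all 9 ways of processing, with ranges of 0.20 to 1.01 and -0.92 to -0.33. The difference of these 2 log2 ratios was 1.61, the highest among the 9 measured genes. It lay outside the range from -1.09 to 0.88 that held 90% of all genes. Such a difference spreads by 0.47 from spot noise alone, as measured on probes with repeated spots. Whether that spread holds for this probe, with 1 spot per array and scaled signals of 2.00 or less, was not tested. With normexp background correction the 2 log2 ratios were closer together, at 0.20 and -0.33. With AZA, SLC2A3 was 2.16-fold lower in MDS-L/CDA than in MDS-L cells (log2 ratio -1.11), a call that was lost with normexp background correction, where the log2 ratio was -0.54. With vehicle that log2 ratio was 0.50, with the sign turned under median scaling and normexp. The dimmer probe, shared with SLC2A14, gave at least 1.71-fold more signal with AZA in MDS-L and at least 1.39-fold more in MDS-L/CDA, and on the 2 AZA arrays it differed by a log2 ratio of 0.06. In MDS-L/CDA cells the 2 probes therefore ran in opposite directions. SLC2A14 itself, on a probe of its own, gave 8.20, 19.9, 7.23 and 10.8. It was 2.42-fold higher with AZA in MDS-L cells, while the ratio in MDS-L/CDA cells was 1.49.

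Hexokinase and the PFKFB enzymes stayed within 2-fold. HK2, the hexokinase bound to mitochondria in many tumor cells (brighter probe at chr2:75120331-75120390), gave 68.1, 50.2, 64.5 and 50.6, so that both AZA arrays were below both vehicle arrays. The log2 AZA/vehicle ratio was -0.44 in MDS-L and -0.35 in MDS-L/CDA cells, negative under all 9 ways of processing, and the spread of such a ratio between single spots was 0.28 and 0.38. The second HK2 probe at chr2:75118359-75118418 gave no ratio, because none of its 4 signals carried the flag.

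PFKFB3 and PFKFB4 make and remove fructose 2,6-bisphosphate, with PFKFB3 strongly favouring its synthesis. The brighter PFKFB3 probe (chr10:6277062-6277121) gave 8.06, 6.54, 9.30 and 10.1, with log2 AZA/vehicle ratios of -0.30 in MDS-L and 0.12 in MDS-L/CDA cells, the latter negative without scaling and with normexp. The dimmer PFKFB3 probe (chr10:6266166-6268203), close to background, gave 0.379, 0.488, 0.440 and 0.409, with 0.37 in MDS-L cells, negative under median scaling, and -0.10 in MDS-L/CDA cells, positive with normexp. The 2 PFKFB3 probes thus had opposite signs in both lines, and none of the 4 values reached 2-fold. PFKFB4 (chr3:48555454-48555513) gave 1.61, 2.28, 2.03 and 1.46. As for SLC2A3, the MDS-L AZA array was the highest and the MDS-L/CDA AZA array the lowest. Its log2 ratio was 0.50 in MDS-L cells, turning to -0.04 under median scaling, and -0.48 in MDS-L/CDA cells. The difference of 0.98 between the lines lay above the 95th percentile of all genes, 0.88.

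PGK1, LDHA and BNIP3 stayed within 2-fold in all 4 comparisons. PGK1, phosphoglycerate kinase (chrX:77381462-77381521, 10 spots), gave 337, 269, 354 and 372, with the MDS-L AZA array as the lowest. Its log2 AZA/vehicle ratio was -0.33 in MDS-L cells, negative under all 9 ways of processing, and 0.07 in MDS-L/CDA cells, negative without scaling. Spots in MDS-L cells ranged from 313 to 360.05 with vehicle and from 249 to 291 with AZA, without overlap, and those of the MDS-L/CDA arrays overlapped. This separation of spots at a log2 ratio of -0.33, which is 0.17 below the median of all genes, shows the precision within an array and nothing about other cultures. LDHA, the muscle-type subunit of lactate dehydrogenase, gave 228, 202, 196 and 273 on the chromosome 11 probe printed above and 48.9, 42.9, 59.7 and 57.4 on the chromosome 9 probe. The log2 AZA/vehicle ratios in MDS-L cells were -0.17 and -0.19, each positive under at least 2 other normalizations. They were 0.48 in MDS-L/CDA cells, positive under all 9 ways of processing, and -0.06, so that the 2 probes had opposite signs. BNIP3 (chr10:133781881-133781940) gave 40.9, 36.5, 38.4 and 44.6, a span of 0.29 on the log2 scale and the narrowest of the 11 probes. Its log2 AZA/vehicle ratio was -0.17 in MDS-L cells, positive under 3 other normalizations, and 0.22 in MDS-L/CDA cells.

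CA9, the carbonic anhydrase most closely tied to hypoxia, was not measurable. Its scaled signals of 0.0431, 0.0456, 0.118 and 0.0594 lay under the faintest signal that carried the flag on each array, 0.190, 0.190, 0.272 and 0.296. No ratio is given for it, and the absence of a usable signal on 1 probe does not show that the gene was silent.

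The choice of normalization moved the median of all genes. Against scaling to the 75th percentile, the median log2 AZA/vehicle ratio of all genes in MDS-L cells moved by -0.54 under median scaling, by 0.18 with the percentile taken over probes well above background on all arrays, and by 0.12 each with quantile normalization, the authors' value table and spike-in scaling. The MDS-L/CDA median moved by -0.13 without scaling. Normexp moved the MDS-L median by only 0.06 but took the brighter SLC2A3 probe from 0.82 to 0.20, so members did not always follow it. For the lines the median of all genes moved by up to -0.52 with vehicle (median scaling) and up to -0.51 with AZA (no scaling). The spike-in scaling was chosen after the data had been seen. Taken relative to the median of all genes, the AZA log2 ratios of ADM, HK2, SLC2A3 (brighter probe), PFKFB4 and PGK1 kept 1 sign under all 9 ways of processing in each line. In MDS-L cells those of SLC2A1, BNIP3 and both LDHA probes did not. No scaling, median scaling, the percentile over detected probes and spike-in scaling each move all probes of an array alike. That move cancels when the median is subtracted, so under them the sign could not differ from that with 75th percentile scaling.

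**Figure D4:**
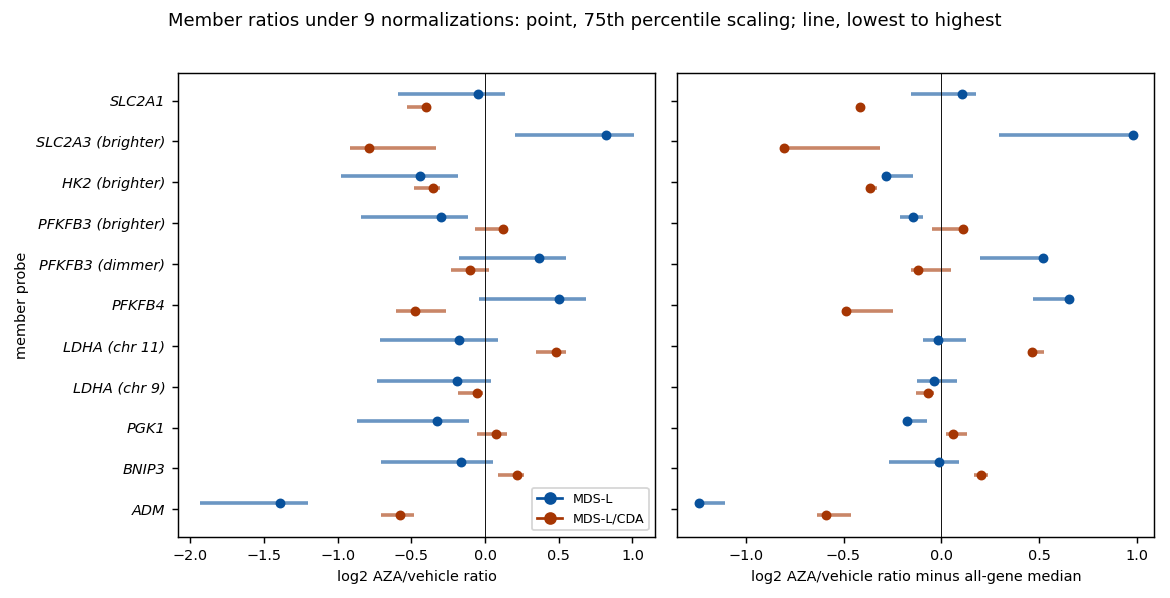
Log2 AZA/vehicle ratio (left) and the same minus the median of all genes (right) for the 11 member probes, in MDS-L (blue) and MDS-L/CDA (orange). Points are values with 75th percentile scaling and lines run from the lowest to the highest of 9 ways of processing. On the right, scalings that move all probes of an array alike give the same value. ADM in MDS-L lies between -1.94 and -1.20 on the left and between -1.24 and -1.11 on the right.

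The members were next set beside 144 related genes on the array, in 11 lists of pathway neighbours that were chosen with earlier results of these data known. With AZA in MDS-L cells 13 of 110 measured genes were 2-fold or more higher (11.8%) and 8 were lower (7.27%), beside 7.7% and 7.51% of all genes. In MDS-L/CDA cells 4 of 98 rose (4.08%) and 7 fell (7.14%), beside 3.09% and 4.09%. The same shares of all genes stand beside the AZA counts of each list below, where few genes make a count imprecise. The median log2 ratio over the related genes measured on both arrays was -0.14 and 0.02. None of the 35 called AZA ratios of related probes changed its sign under the 9 ways of processing, and 24 of them were under 2-fold in at least 1. The 11 that stayed at 2-fold or more were, in MDS-L cells, those of RAMP1 (both probes), CA2, PDK1, PDP1, DDIT4, CXCR4, LDHD and 1 CITED2 probe and, in MDS-L/CDA cells, those of EPAS1 and FAM162A.

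Of the other glycolytic enzymes, 16 were measured in MDS-L cells, where 3 rose with AZA and 0 fell, beside 7.7% and 7.51% of all genes. In MDS-L/CDA cells 14 were measured, of which 2 rose and 0 fell, beside 3.09% and 4.09%. The genes that rose were muscle and neuronal isoforms. ENO2, the neuronal enolase, gave 0.336, 1.56, 0.285 and 0.740, that is 4.64-fold higher with AZA in MDS-L cells and at least 2.60-fold higher in MDS-L/CDA cells, where its vehicle signal was not well above background. PFKM, the muscle phosphofructokinase, gave 0.781, 2.78, 0.769 and 1.65, or 3.56-fold and 2.14-fold higher. ENO3, the muscle enolase, was 2.93-fold higher in MDS-L cells, with a log2 ratio of 0.63 in MDS-L/CDA cells. Over the whole list the log2 ratios had medians of -0.23 and -0.02 in the 2 lines. Under the other ways of processing PFKM in MDS-L/CDA cells had a log2 ratio as low as 0.29 and ENO2 in MDS-L cells as low as 0.87, and each of the 5 AZA calls of the list fell under 2-fold in at least 1 of them without a change of sign. The lowest values were 0.77 for PFKM and 0.89 for ENO3 in MDS-L cells and 0.31 for ENO2 in MDS-L/CDA cells. PGAM1 was 2.31-fold higher in MDS-L/CDA than in MDS-L cells with AZA on 1 of its 2 probes.

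Among the 11 other glucose transporters 7 were measured in MDS-L cells, where SLC2A11 and SLC2A14 rose and SLC2A4 fell. SLC2A4, the insulin-responsive GLUT4, was at least 3.16-fold lower with AZA in MDS-L cells and had a log2 ratio of -1.02 in MDS-L/CDA cells, which was also a call. SLC2A11 had log2 ratios of 1.11 and -0.27. PFKFB2, the cardiac isoform of the PFKFB family, gave 3.83, 8.13, 3.41 and 2.02 on its brighter probe. It was 2.12-fold higher with AZA in MDS-L cells, with a log2 ratio of -0.76 in MDS-L/CDA cells. Like SLC2A3 and PFKFB4 it was thus highest on the MDS-L AZA array and lowest on the MDS-L/CDA AZA array. How many of all probes share this order was not counted. With AZA, PFKFB2 was 4.04-fold lower in MDS-L/CDA than in MDS-L cells.

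Of 19 measured genes of lactate and pyruvate handling 1 rose and 4 fell with AZA in MDS-L cells, beside 7.7% and 7.51% of all genes. PDK1, which shuts pyruvate dehydrogenase by phosphorylation and is a HIF target, gave 15.2, 4.14, 12.01 and 8.72. It fell 3.67-fold in MDS-L cells, with a log2 ratio of -0.46 in MDS-L/CDA cells. PDP1, which reverses that phosphorylation, fell 2.39-fold in MDS-L cells (log2 ratio -1.26). SLC16A1, the lactate transporter MCT1, gave 2.00, 0.701, 2.21 and 0.415 and fell in both lines, with log2 ratios of -1.51 and -2.41. LDHB, the heart-type subunit that pairs with LDHA, fell on its dimmer probe in MDS-L cells (log2 ratio -1.10) and not on its brighter one (-0.05), so its probes disagreed. LDHD, a mitochondrial lactate dehydrogenase acting on D-lactate, was at least 7.96-fold higher with AZA in MDS-L cells and not well above background with vehicle. In MDS-L/CDA cells SLC16A7, the lactate transporter MCT2, rose 2.10-fold, and SLC16A1 was the only other call among 18 measured genes. With AZA, 1 probe each of PDP2 and PDHA1 was higher in MDS-L/CDA than in MDS-L cells, by 2.04-fold and by at least 2.18-fold, and their other measured probes were not called.

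The HIF subunits themselves were measured. HIF1A gave 5.48, 3.89, 4.82 and 3.97 on its brighter probe, with log2 AZA/vehicle ratios of -0.49 and -0.28. EPAS1, the HIF2A subunit, gave 74.0, 115.9, 52.9 and 120.02, with 0.65 in MDS-L cells and a 2.27-fold rise in MDS-L/CDA cells (log2 ratio 1.18). ARNT, the common partner, had log2 ratios of -0.52 and 0.28. With AZA it was higher in MDS-L/CDA than in MDS-L cells (log2 ratio 1.15, and 0.41 with normexp). CITED2, which competes with HIF1A for CREBBP and EP300, rose on both probes in MDS-L cells, 2.35-fold and 3.20-fold, with log2 ratios of 0.86 and 0.85 in MDS-L/CDA cells. CREBBP fell in MDS-L/CDA cells (log2 ratio -1.59) on 1 probe. In all 1 of 13 measured subunits and regulators rose and 0 fell in MDS-L cells, and 1 rose and 1 fell of 12 in MDS-L/CDA cells. The protein of HIF1A is controlled by its degradation, which these arrays do not measure.

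Of 30 further HIF target genes measured in MDS-L cells 3 (DDIT4, CXCR4 and ENO2) rose and 2 (PDK1 and ERO1L) fell with AZA. The shares of all genes there were 7.7% and 7.51%. In MDS-L/CDA cells 1 of 28 (ENO2) rose and 2 (VEGFA and FAM162A) fell. DDIT4, an inhibitor of mTORC1, gave 8.21, 36.1, 9.34 and 12.5, a 4.40-fold rise in MDS-L cells beside a ratio of 1.34 in MDS-L/CDA cells. CXCR4, the chemokine receptor, was 4.50-fold higher in MDS-L cells and not well above background in MDS-L/CDA cells. Between the lines its log2 ratio was thus a bound, -3.35 or lower with vehicle and -5.40 or lower with AZA. ERO1L, an oxidase of the endoplasmic reticulum, fell 2.20-fold in MDS-L cells. VEGFA, the angiogenic growth factor, fell on its dimmer probe in MDS-L/CDA cells (log2 ratio -1.27) while its brighter probe had a log2 ratio of 0.34, so the call rested on 1 of 2 probes. NDRG1 had log2 ratios of 0.80 and 0.31. Like ADM, PDK1 and ERO1L fell in MDS-L cells, whereas DDIT4 and CXCR4, of the same list, rose there. SLC2A14, DDIT4, CXCR4 and NDRG1 are also on a gene list that the study drew from these arrays, so that their direction is not independent evidence.

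**Figure D5:**
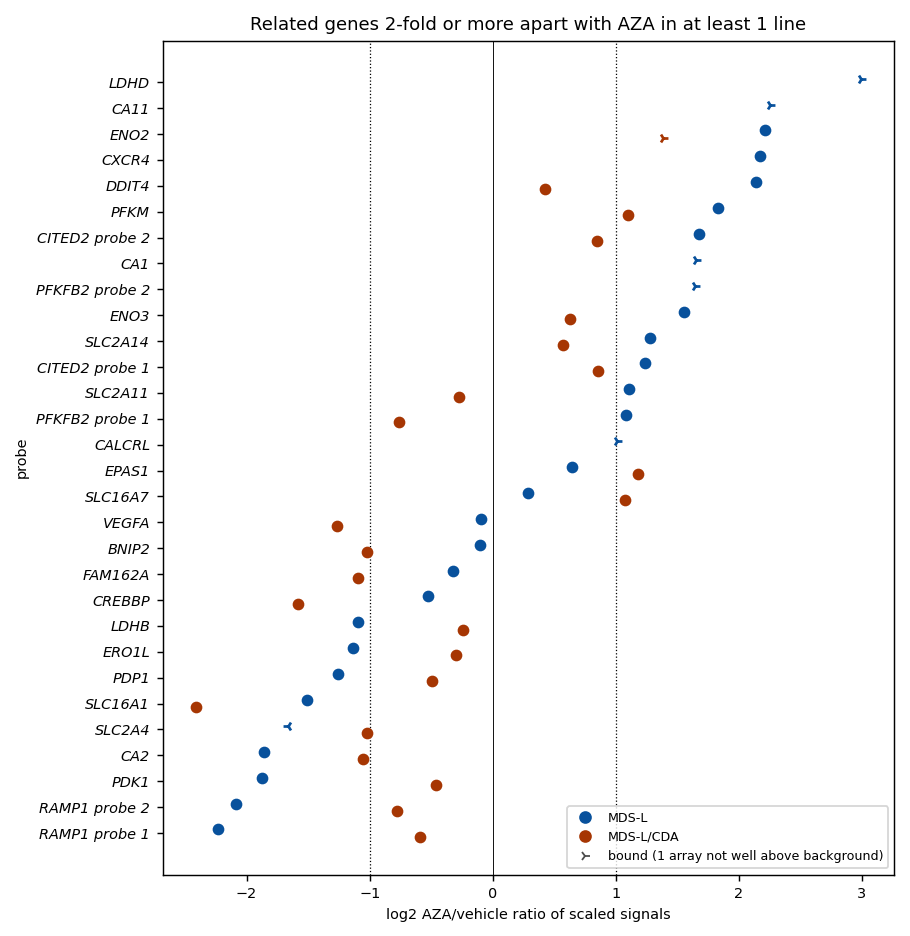
Log2 AZA/vehicle ratio (horizontal axis) of the related probes that were 2-fold or more apart in at least 1 line, for MDS-L (blue) and MDS-L/CDA (orange), with dotted lines at 2-fold. Round points are ratios and 3-armed marks are bounds where 1 of the 2 arrays was not well above background. RAMP1 is at the bottom at -2.23 and LDHD at the top at a bound of 2.99, both in MDS-L.

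Related peptide and receptor genes of the ADM family and the relatives of CA9 and BNIP3 were read in the same way. Of the 6 peptide and receptor genes 3 were measured in MDS-L cells, and whether the receptors of ADM itself changed was not tested. RAMP1, which joins CALCRL to form a receptor for peptides of the calcitonin family, gave 113, 24.1, 139.5 and 92.7 on its brighter probe. Both of its probes fell in MDS-L cells (log2 ratios -2.23 and -2.09) and stayed within 2-fold in MDS-L/CDA cells (-0.59 and -0.78). ADM2, a related peptide, was 2.46-fold lower in MDS-L/CDA than in MDS-L cells with AZA on 1 of 2 probes. CALCRL was at least 2.02-fold higher with AZA in MDS-L cells, a bound close to the threshold. Of 6 carbonic anhydrases measured in MDS-L cells 2 (CA1 and CA11) rose with AZA and 1 (CA2) fell, and of 3 measured in MDS-L/CDA cells CA2 fell. CA1 and CA11 were at least 3.14-fold and at least 4.77-fold higher with AZA in MDS-L cells, from vehicle signals not well above background. CA13 was lower in MDS-L/CDA than in MDS-L cells, 2.01-fold with vehicle and 2.67-fold with AZA. CA2, a cytosolic carbonic anhydrase, had 20.6, 5.68, 7.49 and 3.62. As for ADM and SLC2A1, the MDS-L vehicle array was the highest and the MDS-L/CDA AZA array the lowest. CA2 fell with AZA in both lines (log2 ratios -1.86 and -1.05) and was 2.75-fold lower in MDS-L/CDA than in MDS-L cells with vehicle. Of 8 relatives of BNIP3 and mitophagy receptors measured in MDS-L cells none was called, and of 7 in MDS-L/CDA cells 1 (BNIP2) fell with AZA. That call rested on 1 of 2 BNIP2 probes (log2 ratio -1.02, beside -0.16), and the same probe was 2.84-fold lower in MDS-L/CDA than in MDS-L cells with AZA. BNIP3L, the closest relative of BNIP3, had log2 ratios of 0.29 and 0.28 on its brightest probe, the former -0.25 under median scaling. Another BNIP3L probe had -0.39 and 0.22 and a further one 0.44 and 0.48. The probes of BNIP3L therefore disagreed in sign in MDS-L cells.

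The promoters of 9 of the 10 genes were in the RefSeq table of GRCh38.p14, as 12 windows from 250 bases before to 50 bases after an annotated start. The core letters ACGTG and GCGTG, to which HIF dimers bind, were counted on both strands. ACGTG overlaps itself in the palindrome CACGTG, which counts once per strand. ACGTG was in 7 of the 12 windows (6 genes) and GCGTG in 10 (8 genes), where 21.4% and 36.5% of all 35114 windows hold them. In CG dinucleotides, the sites of DNA methylation, the windows held 7 (CA9) to 48 (BNIP3), and 11 of the 12 were at or above the median of all windows, 14. 3 of them are printed, for ADM, which was lower with AZA in MDS-L cells, and for LDHA and PGK1, which were not called in any comparison. Each is given as the 250 bases before the start, with matches to either motif in capitals.
ADM (GRCh38.p14 chr11:10304823-10305072, plus strand): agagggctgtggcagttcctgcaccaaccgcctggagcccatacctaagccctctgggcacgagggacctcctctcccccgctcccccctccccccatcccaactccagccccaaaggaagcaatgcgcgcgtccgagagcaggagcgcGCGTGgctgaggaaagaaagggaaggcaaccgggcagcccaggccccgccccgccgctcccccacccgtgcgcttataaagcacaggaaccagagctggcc
LDHA (GRCh38.p14 chr11:18394313-18394562, plus strand): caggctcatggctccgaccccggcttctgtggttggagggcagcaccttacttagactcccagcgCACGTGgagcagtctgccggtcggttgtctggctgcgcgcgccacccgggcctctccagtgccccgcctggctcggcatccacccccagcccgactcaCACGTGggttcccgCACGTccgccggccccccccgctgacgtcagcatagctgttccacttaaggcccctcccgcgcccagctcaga
PGK1 (GRCh38.p14 chrX:78103998-78104247, plus strand): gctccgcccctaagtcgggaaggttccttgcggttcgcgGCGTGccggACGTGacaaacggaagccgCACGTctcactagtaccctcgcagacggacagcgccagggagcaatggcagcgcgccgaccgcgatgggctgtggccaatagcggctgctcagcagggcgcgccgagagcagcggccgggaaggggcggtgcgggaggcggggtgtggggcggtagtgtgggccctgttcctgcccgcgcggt
The ADM stretch holds 0 ACGTG and 1 GCGTG with 16 CG dinucleotides, the LDHA stretch 5 ACGTG and 0 GCGTG with 22, and the PGK1 stretch 2 ACGTG and 1 GCGTG with 32. A match is a description of the letters and not a bound site, and neither binding nor methylation was measured on these arrays.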

How the data were processed

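RNA of the 4 conditions was hybridized to 1 Agilent one-colour array each, and all 4 groups have 1 sample. The authors deposited the scanner output of Agilent Feature Extraction 10.7.1.1, whose processed signal is an intensity after background subtraction within the array and without normalization between arrays. They also deposited a value table of 51680 probes, intensity values whose sorted columns differ by at most 0.04 log2, as after quantile normalization, which the methods do not describe. Tools for that step are not given in the sources used here. Control spots and flagged outlier spots were dropped, which removed 16 probes. The log2 values of each probe's spots were averaged and set against the array's 75th percentile. Probe names and hg19 positions are those of the array file.

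A ratio was formed where a probe was well above background on both arrays of a comparison. Where it was on 1 array, the fold is a bound, with the dim side set to its own signal or to the faintest signal with the flag there, whichever was higher. Otherwise there is no fold. A gene was called at 2-fold or more by at least 1 probe, and the median over genes used the brightest probe measured on both arrays. The Z score that the methods add was run as an alternative with bins chosen here, since its formula is not given. With 1 array per condition no test was run, and the number of arrays limits the precision. The members and the lists were chosen with earlier results of these data known. All member probes are reported. Other genes are named if called in at least 1 comparison, up to 3 per direction, list and comparison, or if among SLC2A14, HIF1A, EPAS1, ARNT, LDHB, PDK1, BNIP3L, VEGFA, NDRG1, DDIT4 and TXNIP. For the 3 member probes with the largest range, the nearest named genes by Euclidean distance of centred log2 signals are given.

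Alternatives were quantile normalization, no scaling, median scaling, a percentile over detected probes, normexp (offset 50), the value table, flagged spots kept, other filters on dim probes, 1.5-fold and 3-fold thresholds, the Z score and other rules for several probes, with scaling to 7 spike-in probes added after seeing the data. The calling rule was tested on simulated data. Python 3.11.15, numpy 2.4.6, pandas 2.3.3, matplotlib 3.10.9, R 4.3.3 and limma 3.58.1 were used. Proteins were not analysed here. The values of 1 marker gene are not reported here.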

Additional observations from a re-analysis of the deposited data

Results flagged for a closer look

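The brighter SLC2A3 probe was picked out because its log2 AZA/vehicle ratio was positive in MDS-L cells (0.82) and negative in MDS-L/CDA cells (-0.79), a difference of 1.61 between the lines. The difference was not tested, since each line has 1 array per treatment, and the dimmer SLC2A3 probe, shared with SLC2A14, did not show the opposite signs. With normexp the 2 log2 ratios of the brighter probe were closer together, at 0.20 and -0.33. PFKFB4 was picked out for the same reason, with log2 ratios of 0.50 and -0.48 and a difference of 0.98. That difference was not tested either, and the value in MDS-L cells turned to -0.04 under median scaling.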

How the results depend on the processing

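None of the 3 called member ratios changed sign, whereas 22 of all 47 member ratios and bounds did under at least 1 other processing, as did the median in MDS-L cells (-0.17, and 0.05 with quantile normalization) and between the lines with AZA (0.01, and -0.26). Of 360 recomputed values 306 stayed within the spread used to judge them. They are not separate checks of the members, since some settings move all log2 ratios of a comparison alike. In MDS-L cells the count of called members was 2 (SLC2A3 and ADM) with the percentile over detected probes and at 1.5-fold and 0 at 3-fold, and the median log2 ratio was -0.72 under median scaling. In MDS-L/CDA cells the count was 1 without the filter on dim probes (HK2) and 1 at 1.5-fold (SLC2A3). Between the lines with vehicle it was 3 (HK2, CA9 and ADM) without that filter, on signals not well above background for HK2 and CA9, and 0 at 3-fold, with medians of -0.44 without scaling and -0.60 under median scaling. With AZA it was 3 without scaling (SLC2A1, SLC2A3 and PFKFB4), 3 at 1.5-fold, and 0 with normexp, at 3-fold, with the Z score and where every probe had to be called, with medians of -0.50 without scaling and -0.38 with normexp. The median difference between the lines in the AZA log2 ratio was -0.38, beside -0.15 over all genes. It was -0.87 under median scaling and -0.09 where the probes of a gene were averaged. Fewer calls at 3-fold and more at 1.5-fold follow from the threshold. Without scaling, under median scaling and with the percentile over detected probes, all log2 ratios of a comparison move by 1 common amount. Without scaling it was -0.51 between the lines with AZA. The changed calls and medians under these scalings follow from that move, and for the other settings the cause was not tested. No paired analysis was possible because each group has 1 array. Leaving out an array leaves no ratio, so this was not run. CA9 and the dimmer probes of HK2, SLC2A3 and PFKFB3 lie so near the background that the signal limits what they can show, and the brighter SLC2A3 probe was at 0.928 on the MDS-L/CDA AZA array, which carries its call.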

Other observations

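All 7 enzymes of the pentose phosphate pathway, which draws glucose 6-phosphate off to make NADPH and ribose, were measured in both lines and none was called in any of the 4 comparisons. Their median log2 AZA/vehicle ratio was -0.17 in MDS-L and in MDS-L/CDA cells. Among the genes that respond to glucose 6-phosphate, TXNIP, which restrains glucose uptake, gave 12.2, 18.6, 13.4 and 10.4 in MDS-L vehicle, MDS-L AZA, MDS-L/CDA vehicle and MDS-L/CDA AZA, with log2 AZA/vehicle ratios of 0.61 and -0.36. Its relative ARRDC4 was 2.54-fold lower in MDS-L/CDA than in MDS-L cells with AZA.

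The profile over the 4 arrays, centred on its mean, was compared with those of 17808 other probes well above background on all of them. The named genes nearest to ADM were DHRSX, SLC39A11 and CHEK1, at distances of 0.12, 0.18 and 0.19 log2. Nearest to the brighter SLC2A3 probe were TBXAS1, APOLD1 and SMIM19, and nearest to PFKFB4 were C9orf85, ASPRV1 and TAF1. PFKFB4 lay at 0.35 from SLC2A3, with 68 probes at least as close to SLC2A3, itself included. Counted from PFKFB4, 556 probes were at least as close. The dimmer PFKFB3 probe was nearer to PFKFB4, at 0.31. These are likenesses over 4 values that share arrays, and they are descriptions only.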
